A study of Caenorhabditis elegans with 24 samples.

Results

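The cytoplasmic ribosomal protein genes of Caenorhabditis elegans were followed through a map of emerin contacts in body wall muscle. They were taken as every annotated gene whose symbol begins with rpl- or rps- and a number, which gave 78 protein-coding genes, 48 for the large and 30 for the small ribosomal subunit. Each gene was read through the 10 kb bin of the ce11 genome that holds its midpoint. The 78 genes fell into 75 of 10032 bins, since 3 bins hold a pair of them, and all 75 were among the 9737 bins with enough reads to be tested. Their symbols chose them, not their reads, but the gene family was picked with earlier results of these data known. The genes are short (median length 748 bp, range 276 to 1734), so a bin also holds other sequence.

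Ribosomal proteins assemble with ribosomal RNA into the large subunit, which forms peptide bonds, and the small subunit, which decodes messenger RNA. Every growing cell needs them in near-equal amounts, and their genes are among the most strongly transcribed by RNA polymerase II in any tissue. Emerin (EMR-1) is a protein of the inner nuclear membrane that binds lamin, and the chromatin it touches in worms lies mostly on the autosome arms, whereas active genes tend to lie inside the nucleus.

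The assay was DamID, in which a bacterial adenine methylase fused to a protein of choice marks nearby GATC sites that are then cut out, amplified and sequenced. Dam-EMR, the fusion to emerin, marks DNA at the envelope, and GFP-Dam, a nuclear fusion that binds no particular place, marks DNA wherever it is accessible. Both sat behind the hsp-16.41 promoter, which was left without heat shock so that expression stayed at trace level, and were switched on by a FLP recombinase driven by myo-3, a muscle promoter. The tissue is body wall muscle by the sample labels, although the design text names the intestine. All animals were L3/L4 larvae, grown for 26 h at 22.5 °C on Dam-negative bacteria, and DNA came from whole larvae pooled from plates. All 8 strains, the controls included, expressed a GFP-tagged lamin. They had 4 genotypes, each carried by a Dam-EMR strain and a separate GFP-Dam strain, so a ratio of the fusions also compares 2 strains. In 2 genotypes the lamin was wild type (GFP::LMN-1) and in 2 it had the Y59C substitution, and 1 genotype of each kind also had the cec-4(ok3124) mutation, in the gene of a chromodomain protein that anchors heterochromatin at the envelope. A genotype is called GFP::LMN-1 or Y59C after its lamin, with cec-4 added for the mutants. Each strain was measured in 3 rounds, the replicate numbers of the labels, giving 24 libraries in 8 groups and 12 pairs of a Dam-EMR with a GFP-Dam library. The design text calls the rounds biological replicas, so p-values rest on the spread between such cultures. The counts of all 24 libraries were fitted together, so both fusions shared an estimate of that spread. Round was not a term of the main fit.

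Depth differed widely between the fusions. GFP-Dam libraries held 2726628 to 19412320 mapped reads and Dam-EMR libraries 34948 to 6163206. A ribosomal protein bin had a median of 429 to 2951 reads in the GFP-Dam libraries and of 4 to 785 in the Dam-EMR libraries. A pair of Dam-EMR libraries stood apart as shallow, round 3 of Y59C with 34948 reads and a median of 4 reads per ribosomal protein bin, and round 1 of Y59C cec-4 with 162877 reads and a median of 13. A single bin with ribosomal DNA took 5.28% to 37.8% of all reads, so levels are given as CPM, the reads per 1000000 reads of a library, where the total leaves out that bin and the 2 mitochondrial bins. Among the bins of 18 body wall muscle genes, that of deb-1 is also the rps-4 bin and was left out. The 16 remaining bins lay 4.00 ± 0.43 (SD, n = 12) log2 units above the median nuclear bin in GFP-Dam, with 15 of 16 above it. The bins of 6 intestinal genes lay at −0.05 ± 0.22. Marker bins of hypodermis, neurons, germline and pharynx lay at 0.94 ± 0.31, 0.43 ± 0.13, 0.38 ± 0.34 and −0.10 ± 0.18.

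The ribosomal protein bins were strongly marked by GFP-Dam in every library. Their median level was 175 ± 12.9 CPM (SD, n = 12), against 36.1 ± 4.5 for the median nuclear bin. On the log2 scale with 1 read added, the median ribosomal protein bin lay 2.28 ± 0.15 above the median nuclear bin, from 1.99 to 2.50 in the 12 libraries. Of the 75 bins, 71 had a mean level above that of the median nuclear bin, 26 (34.7%) were in the top 10% of nuclear bins and 0 were in the bottom 10%. Each bin is an average over pooled nuclei, so fewer marked nuclei and less methylation per nucleus cannot be told apart. The level of a bin also depends on its GATC sites, which were not counted. Bins and gene groups are therefore compared in reads, not in accessibility.

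Levels differed widely between bins. The highest was that of rpl-9, a large-subunit gene on chromosome III (7572105 to 7572831), with 2214 ± 734 CPM (SD, n = 12). Next came rpl-17, whose product lines the peptide exit tunnel, with 1438 ± 289, and then rps-26, whose product sits where messenger RNA leaves the small subunit, with 850 ± 114. The other bins in the top 5 were those of rpl-27 (696 ± 97.2), a large-subunit gene, and rps-13 (602 ± 125), a small-subunit gene. The bins of rpl-9 and rpl-17 stood clear of the rest, and the rpl-9 bin also holds lpd-7 and mfsd-6.

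The 5 lowest bins were all those of large-subunit genes. Their levels were 17.1 ± 6.58 CPM for rpl-34, 18.7 ± 14.3 for rpl-28, 20.5 ± 4.69 for rpl-18, 25.9 ± 8.02 for rpl-37.2 and 48.5 ± 16.9 for rpl-12, whose product forms the base of the stalk that recruits translation factors. The first 4 of these were the ones below the median nuclear bin, and rpl-12 lay above it but below the median bin of the autosome centres (52.7). The bins of the like-named genes rpl-37.1 and rpl-37.2 differed in level, with 126 ± 32.0 and 25.9 ± 8.02 CPM, as did those of rpl-23A.1 (428 ± 96.9) and rpl-23A.2 (84.7 ± 16.2). How alike the sequences of such genes are was not examined. How reads that match several places were treated is not given in the sources used here, so values of bins with such reads are uncertain.

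**Figure D1:**
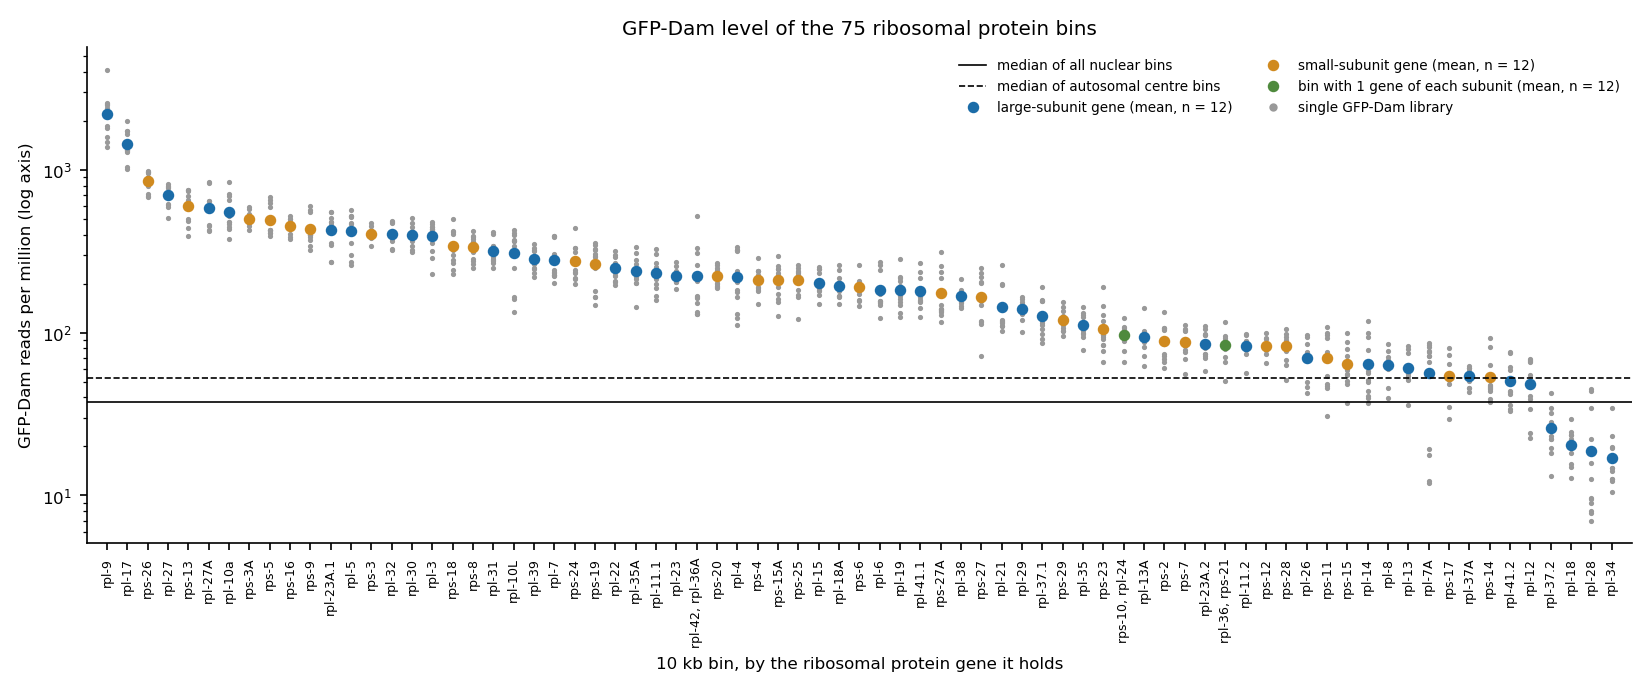
GFP-Dam level in CPM (log axis) in each of the 75 ribosomal protein bins, ordered by their mean; grey points are the 12 single GFP-Dam libraries and coloured points their mean by subunit. The bins run from rpl-9 at 2214 to rpl-34 at 17.1, and 4 means lie under the solid line, the median nuclear bin.

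The high GFP-Dam level was local to the gene's own bin. The bins 10 kb to either side of the ribosomal protein bins had medians of 0.67 ± 0.11 and 0.71 ± 0.10 log2 units above the median nuclear bin (SD, n = 12), against 2.28 ± 0.15 for the bins themselves. Against the bins 20 to 50 kb away, the ribosomal protein bins were higher by 1.89 ± 0.19, from 1.58 to 2.14 over the 12 libraries. The Dam-EMR libraries had the same shape, with 2.09 ± 0.47 at the gene's bin and 0.25 ± 0.31 and 0.44 ± 0.57 at 10 kb.

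**Figure D2:**
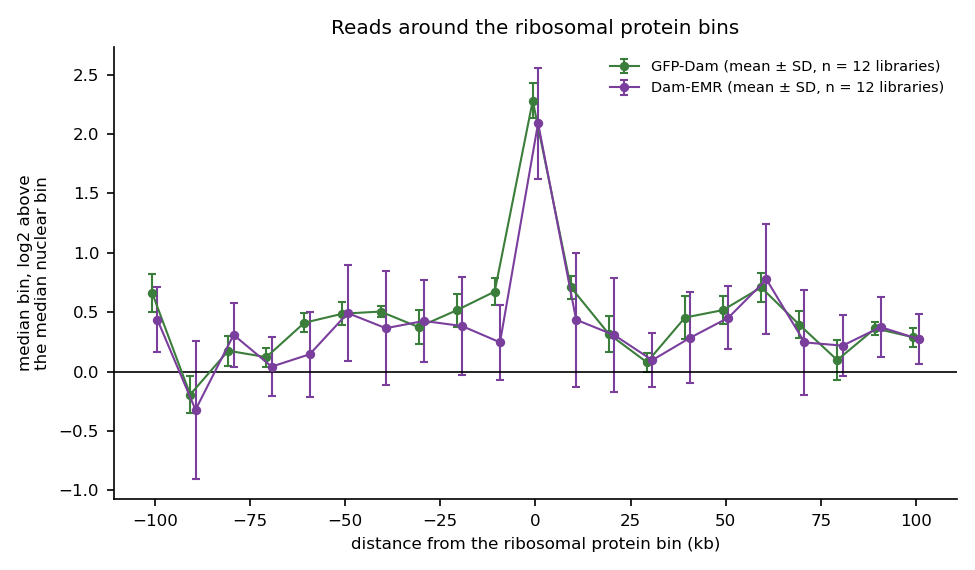
Median level of GFP-Dam and Dam-EMR, in log2 units above the median nuclear bin (mean ± SD over 12 libraries each), in bins up to 100 kb to either side of the 75 ribosomal protein bins. Both fusions peak in the bin at distance 0, at 2.28 and 2.09, and lie at 0.78 or lower in every other bin plotted.

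The GFP-Dam level was alike on arms and in centres. Of the 75 bins, 30 lay in autosome centres, 43 on autosome arms (the outer 33% at each end) and 2 on X. Those on arms had a median 2.28 ± 0.16 log2 units above the median nuclear bin (SD, n = 12), where all arm bins had −0.44 ± 0.04. Those in centres had 2.33 ± 0.18, where all centre bins had 0.49 ± 0.08. Relative to their own zone the arm bins therefore stood 2.72 ± 0.15 and the centre bins 1.85 ± 0.21 higher, and both differences were above 0 in all 12 libraries. By chromosome the bins numbered 22 on I, 10 on II, 17 on III, 17 on IV, 7 on V and 2 on X, with medians between 2.01 ± 0.24 (IV) and 2.74 ± 0.18 (II).

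The bins also held other genes. They held a mean of 3.51 coding genes, against 1.99 in nuclear bins and 2.38 in autosome centre bins. Each of the 75 was chosen for holding a coding gene, which was not asked of the other bins. That choice alone raises their mean, and bins of other coding genes were not set beside them. Only 5 held no coding gene beside the ribosomal protein gene. A small nucleolar RNA gene, whose product guides the modification of ribosomal RNA, lay in 16 of the 75 bins (21.3%), against 3.14% of nuclear bins. Over the 75 bins, the number of coding genes and the GFP-Dam level had a Spearman rho of 0.09, as a description of bins that share libraries.

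Of 5 other groups of translation genes, 4 had lower median GFP-Dam levels per bin. Bins shared with ribosomal protein genes were left out of these groups. That took out 2 bins of ribosome biogenesis genes, 1 of them the rpl-9 bin with lpd-7. It also took out 1 bin each of tRNA synthetases, translation factors and mitochondrial ribosomal proteins. The median log2 level above the median nuclear bin was 1.69 ± 0.12 (SD, n = 12) for 19 bins of cytoplasmic tRNA synthetases, which charge tRNA, and 1.37 ± 0.09 for 39 bins of translation factors. It was 0.88 ± 0.29 for 17 bins of ribosome biogenesis genes and 0.67 ± 0.11 for 69 bins of mitochondrial ribosomal proteins, which serve the ribosome of another compartment. These 4 medians were above 0 in 12 of 12 libraries and below that of the cytoplasmic ribosomal protein bins. The fifth group, proteins of the ribosomal stalk, ubiquitin fusions and ribosome-bound proteins, had only the 2 bins of rack-1 and ubq-2, with a higher median of 2.72 ± 0.37. The 181 bins of srh chemoreceptor genes, which are used in sensory neurons, had −1.65 ± 0.23. Ribosomal proteins whose symbols follow another pattern were not among the 78 genes and were looked up after the values of the others were known. Their bins, and that of the ribosome-bound rack-1, had 670 ± 83.1 CPM for rplp-1, 665 ± 73.3 for rack-1, 346 ± 114 for rplp-0, 351 ± 67.5 for rpsa-1, 109 ± 23.0 for rplp-2.2, 88.7 ± 23.7 for ubq-2 and 53.3 ± 13.9 for rplp-2.1.

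GFP-Dam levels of the ribosomal protein bins were compared between lamins and between cec-4 states to ask whether free Dam reached them differently. The median bin had 158, 168 and 198 CPM in rounds 1, 2 and 3 of GFP::LMN-1 and 172, 190 and 168 in GFP::LMN-1 cec-4. It had 179, 184 and 170 in Y59C and 168, 189 and 157 in Y59C cec-4. The 4 genotypes overlapped. No ribosomal protein bin was called between Y59C and wild-type lamin by edgeR's quasi-likelihood test (0 of 75, where 0.0103% of all tested bins were called). None was called between cec-4 mutant and cec-4 intact genotypes either (0 of 75, background 0%). DESeq2 and limma (here on log2 GFP-Dam levels) likewise called 0 in both comparisons, but their shares over all bins are not given here. At an unadjusted p under 0.05 both edgeR counts were also 0. Only 0.0205% (lamin) and 0.0103% (cec-4) of all tested bins passed there, so these counts say little about the ribosomal protein bins. The smallest p in both belonged to rpl-21, a large-subunit gene, with log2 differences of 0.41 (SE 0.44, edgeR adjusted p = 1) for the lamin and −0.32 (SE 0.44, edgeR adjusted p = 1) for cec-4.

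Emerin contact was measured as the log2 ratio of Dam-EMR over GFP-Dam, centred on the median nuclear bin of each pair. The ribosomal protein bins held 1.98% ± 0.41 of Dam-EMR reads and 1.99% ± 0.09 of GFP-Dam reads (SD, n = 12 each). The log2 ratio of these shares was −0.04 ± 0.36, with 7 of 12 pairs above 0, but −0.14 ± 0.25 with 3 of 12 above 0 when the bins of rpl-9 and rpl-17 were left out. Their median centred ratio was −0.13 ± 0.60 over the 12 pairs, with 6 pairs above 0 and a range of −1.33 to 0.59. The median was −0.04 with 0.5 reads added to each bin and −0.40 with 5. The spread between pairs was larger than the distance from 0. Autosome centre bins had −0.14 ± 0.17, with 2 of 12 pairs above 0, and autosome arm bins 0.13 ± 0.17, with 10 of 12 above 0. The ribosomal protein bins differed from the centre bins by 0.01 ± 0.54. Large-subunit bins (−0.13 ± 0.59) and small-subunit bins (−0.12 ± 0.62) had like medians, as did ribosomal protein bins in centres (−0.19 ± 0.58) and on arms (−0.06 ± 0.63).

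The pair medians differed more between rounds than between genotypes. In GFP::LMN-1 they were 0.07, −0.04 and 0.15 in rounds 1, 2 and 3, and in GFP::LMN-1 cec-4 they were −0.56, 0.52 and −0.20. In Y59C they were −0.38, 0.49 and −0.98, and in Y59C cec-4 −1.33, 0.59 and 0.15. The genotype means were 0.06 ± 0.09, −0.08 ± 0.55, −0.29 ± 0.73 and −0.20 ± 1.00 (SD, n = 3), so no genotype stood apart from another beyond its spread. The round means were −0.55 ± 0.58, 0.39 ± 0.29 and −0.22 ± 0.53 (SD, n = 4). The lowest pair medians belonged to both shallow Dam-EMR libraries, and without those pairs the mean was 0.08 ± 0.39 (n = 10). The share of Dam-EMR reads in the ribosomal protein bins was 1.49% ± 0.31 in round 1, 2.27% ± 0.16 in round 2 and 2.17% ± 0.09 in round 3, whereas that of GFP-Dam reads stayed between 1.86% and 2.14%. In round 3 the log2 ratio of the shares was above 0 in 4 of 4 pairs, and in 0 of 4 without the bins of rpl-9 and rpl-17. The part of depth and of round in these ratios was not tested.

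**Figure D3:**
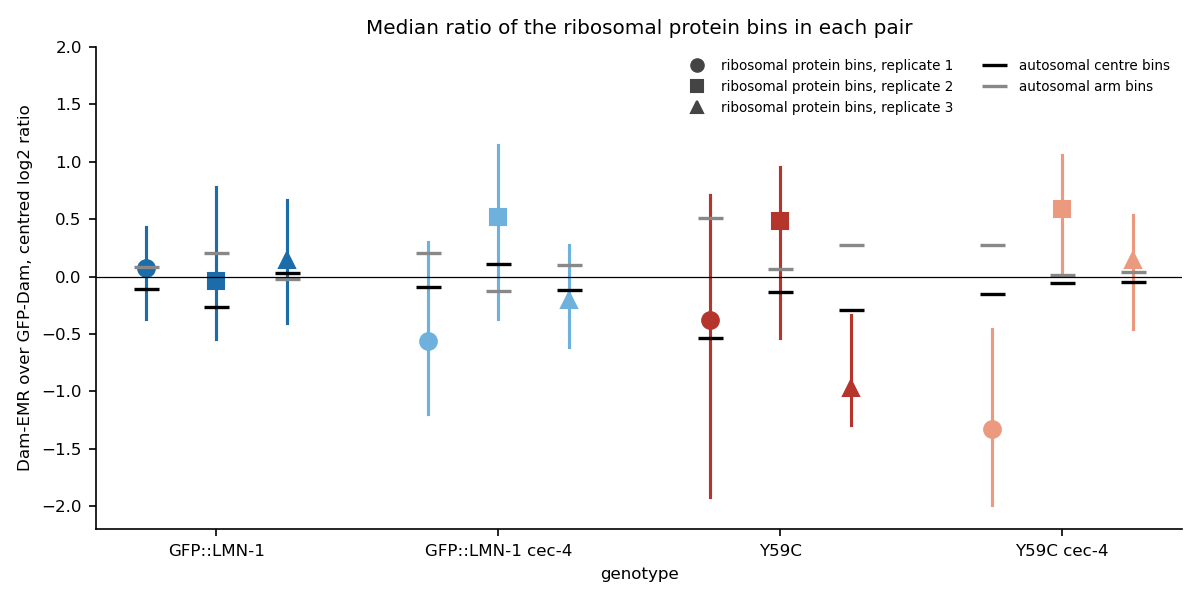
Median centred log2 ratio of Dam-EMR over GFP-Dam in the 75 ribosomal protein bins for each of the 12 pairs of a genotype and round, with vertical lines from the 25th to the 75th percentile of the bins, and short lines at the medians of autosome centre and arm bins. Pair medians run from −1.33 (round 1 of Y59C cec-4) to 0.59 (round 2 of Y59C cec-4), on both sides of 0.

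Averaged over the 4 genotypes, 2 ribosomal protein bins were called lower and none higher in Dam-EMR. They were those of rps-17, a small-subunit gene, and rpl-18, a large-subunit gene. Across all 9737 tested bins, 127 (1.3%) were called higher and 175 (1.8%) lower by edgeR's quasi-likelihood test with Benjamini-Hochberg adjustment, so the 2 of 75 lower bins (2.67%) were near the background. The split of all called bins turned with scaling, to 154 higher and 104 lower under RLE size factors and 89 and 175 under library totals. DESeq2, which changes the test as well, gave 519 and 378, and limma on pair ratios gave 3 and 1. At an unadjusted p under 0.05, 9 ribosomal protein bins (12%) passed, 2 of them higher, against 20.2% of all tested bins. The median fitted log2 ratio was −0.12 for the ribosomal protein bins and −0.07 for all tested bins, with 43 of the 75 below 0. The 10th and 90th percentiles were −0.68 and 0.34 for the ribosomal protein bins and −1.32 and 0.91 for all tested bins.

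The rps-17 gene lies on chromosome I at 6220093 to 6220764, in the centre, and shares its bin with T08B2.11 and T08B2.4. In GFP-Dam the bin had 54.6, 52.2 and 63.7 CPM in rounds 1 to 3 of GFP::LMN-1, 51.0, 29.4 and 48.5 in GFP::LMN-1 cec-4, 79.9, 56 and 56.8 in Y59C and 53.5, 34.8 and 72.8 in Y59C cec-4. In Dam-EMR it had 26.1, 4.0 and 19.7 in GFP::LMN-1, 99.7, 4.28 and 28.7 in GFP::LMN-1 cec-4, 1.98, 2.60 and 0 in Y59C and 6.63, 30.2 and 7.99 in Y59C cec-4. The fusions did not overlap in GFP::LMN-1, Y59C or Y59C cec-4, but did in GFP::LMN-1 cec-4, whose round 1 Dam-EMR library was the highest of all. The log2 ratio averaged over genotypes was −1.88 (SE 0.47, edgeR adjusted p = 0.0323), and 10 of 12 pairs lay below 0. Over 23 alternatives the ratio stayed between −2.23 and −1.65 and the adjusted p between 0.00358 and 0.240, with 12 of them past the threshold.

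The rpl-18 gene lies on chromosome IV at 13777865 to 13778809, on the right arm, and its bin had few reads. GFP-Dam levels were 15.5, 19.6 and 29.4 CPM in GFP::LMN-1, 18.1, 23.6 and 22.2 in GFP::LMN-1 cec-4, 23.5, 14.9 and 24.6 in Y59C and 12.7, 20.9 and 21.1 in Y59C cec-4. Dam-EMR levels were 43.1, 34.0 and 8.19 in GFP::LMN-1, 1.66, 6.06 and 20.4 in GFP::LMN-1 cec-4, 0 in all 3 rounds of Y59C and 0, 7.49 and 0.381 in Y59C cec-4. Dam-EMR was thus at or above GFP-Dam in rounds 1 and 2 of GFP::LMN-1 and absent from all 3 Y59C libraries. A fitted fold change depends on the value added to such zeros, so none is given. The centred ratio with 1 read added was −1.38 ± 1.87 over the 12 pairs, with 10 below 0, and the averaged call had an edgeR adjusted p of 0.0365. Over 23 alternatives that adjusted p ran from 0.00999 to 0.285, with 11 past the threshold.

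Both averaged calls were lost when round 1, 2 or 3 was left out in all genotypes, and without round 3 no bin of the genome was called. Both were also lost without 1 of 5 single pairs: round 2 or 3 of GFP::LMN-1, round 1 of Y59C, and round 1 or 3 of Y59C cec-4, where the adjusted p lay between 0.0512 and 0.0913 for rps-17 and between 0.0533 and 0.0886 for rpl-18. The rps-17 call was lost without round 3 of GFP::LMN-1 cec-4 (edgeR adjusted p = 0.0541). The rpl-18 call was lost without round 1 of GFP::LMN-1 cec-4 (edgeR adjusted p = 0.0532) or round 2 of Y59C (edgeR adjusted p = 0.0695). Leaving out both shallow pairs left 0 of the 75 bins called, where 36 of 9797 tested bins were called higher and 190 lower. Leaving out the Y59C pair of round 3 alone kept both calls. Some pairs, once left out, brought other bins below the threshold, all of them lower. Without round 2 of Y59C it was rpl-41.1, where 241 of 9809 tested bins were called lower. Without round 3 of Y59C cec-4 it was rpl-21 (104 of 9813 lower). Without round 2 of Y59C cec-4 it was the bin of rpl-36 and rps-21 (98 of 9802 lower). Without round 1, where 1.07% of all tested bins were called higher and 3.02% lower, 2 ribosomal protein bins were called higher, those of rpl-9 (1.33, SE 0.27, edgeR adjusted p = 0.0259) and rps-16 (0.79, SE 0.19, edgeR adjusted p = 0.0351), and 1 called lower, that of rpl-37A (−1.90, SE 0.46, edgeR adjusted p = 0.0351). The calls on these bins thus changed with the rounds counted.

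**Figure D4:**
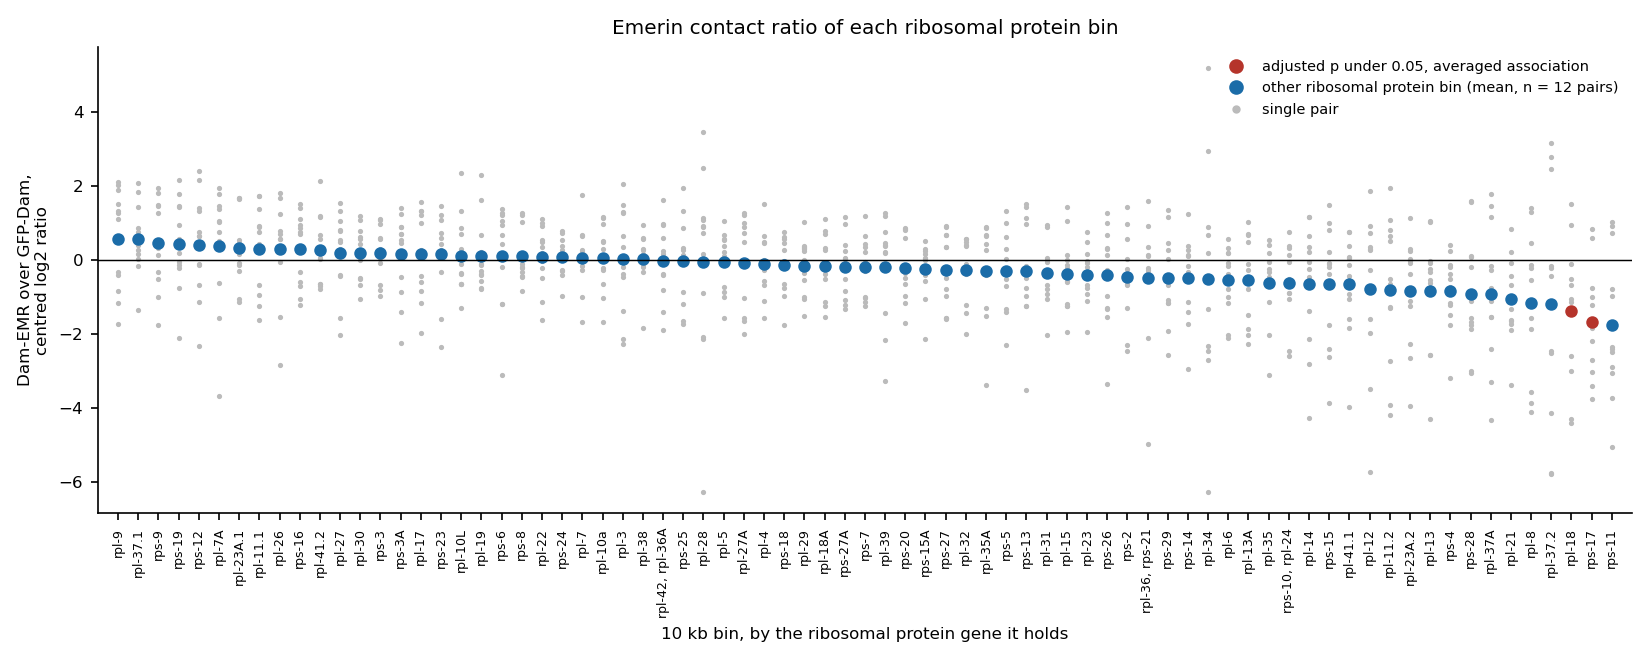
Centred log2 ratio of Dam-EMR over GFP-Dam for each of the 75 ribosomal protein bins, ordered by the mean over 12 pairs; grey points are single pairs and red marks the 2 bins called in the averaged association. Single pairs fall on both sides of 0 in every bin; the means run from 0.57 for rpl-9 to −1.75 for rps-11, which was not called.

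None of the highest averaged ratios passed the test. The bin of rpl-7A, a large-subunit gene on chromosome IV (4389143 to 4390590), had 0.86 (SE 0.58, edgeR adjusted p = 0.428) and 9 of 12 pairs above 0. These pairs include round 3 of Y59C at 0.48, although its Dam-EMR library held 0 reads in the bin. With 1 read added, an empty bin can lie above 0 in so shallow a library. In rounds 1, 2 and 3 its GFP-Dam levels were 76.9, 65.6 and 12 CPM in GFP::LMN-1, 76.4, 81.7 and 17.8 in GFP::LMN-1 cec-4, 71.8, 84.0 and 12.2 in Y59C and 86.1, 71.8 and 19.4 in Y59C cec-4. Its Dam-EMR levels were 128, 170 and 12.3 in GFP::LMN-1, 221, 156 and 11.4 in GFP::LMN-1 cec-4, 96.9, 98.0 and 0 in Y59C and 26.5, 160 and 0.761 in Y59C cec-4. Both fusions were low in round 3 in every genotype. The bin of rps-12, a small-subunit gene, had 0.85 (SE 0.41, edgeR adjusted p = 0.240), with 7 of 12 pairs above 0. Its Dam-EMR levels ran from 7.84 to 597 CPM (mean 153 ± 176, n = 12), against 65.0 to 99.9 in GFP-Dam.

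The rpl-9 bin, the most strongly marked by GFP-Dam, had an averaged ratio of 0.79 (SE 0.36, edgeR adjusted p = 0.208). Its Dam-EMR level was 787 to 1326 CPM in the 4 libraries of round 1 and 3107 to 5713 in the 8 libraries of rounds 2 and 3, so these rounds did not overlap, while GFP-Dam ran from 1382 to 4122 over all 12. The remaining high ratios were 0.58 for rpl-37.1 (SE 0.29, edgeR adjusted p = 0.276), 0.50 for rps-9 (SE 0.27, edgeR adjusted p = 0.294) and 0.42 for rps-19 (SE 0.28, edgeR adjusted p = 0.424). The product of rps-9 helps hold the small subunit's decoding fidelity, and the human counterpart of rps-19 is the gene most often mutated in Diamond-Blackfan anaemia. Without round 2 of Y59C the value for rps-19 was −0.04. The rpl-37.1 bin was the only one of the 75 with 10 or more of 12 pairs above 0 (1.33%), against 5.10% of nuclear bins.

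Below rpl-18 and rps-17 in the order of averaged ratios came 4 bins that did not pass. They were those of rpl-23A.2 (−1.01, SE 0.36, edgeR adjusted p = 0.105), whose product lies at the exit tunnel, and rps-11 (−1.0, SE 0.58, edgeR adjusted p = 0.343). The other 2 were rpl-21 (−0.99, SE 0.32, edgeR adjusted p = 0.0774) and rpl-13 (−0.75, SE 0.42, edgeR adjusted p = 0.325). DESeq2, which called 3.91% of all bins lower, called 3 of the 75 lower, those of rps-17, rpl-18 and rpl-23A.2 (−0.96, SE 0.32, DESeq2 adjusted p = 0.0336). Of the 75 bins, 5 (6.67%) were below 0 in 10 or more pairs, against 5.46% of nuclear bins.

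None of the 3 bins that hold a pair of ribosomal protein genes passed the test. The averaged ratio was −0.48 (SE 0.35) for the bin of rps-10 and rpl-24, −0.15 (SE 0.41) for that of rpl-36 and rps-21 and 0.01 (SE 0.31) for that of rpl-42 and rpl-36A, all with edgeR adjusted p of 0.464 or more. Their GFP-Dam levels were 96.4 ± 15.1, 83.6 ± 16.3 and 222 ± 116 CPM (SD, n = 12). Over the 75 bins the averaged ratio and the mean GFP-Dam level had a Spearman rho of 0.37, against 0.04 over the 9737 tested bins, given as a description since the ratio contains the GFP-Dam reads and all bins share libraries.

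**Figure D5:**
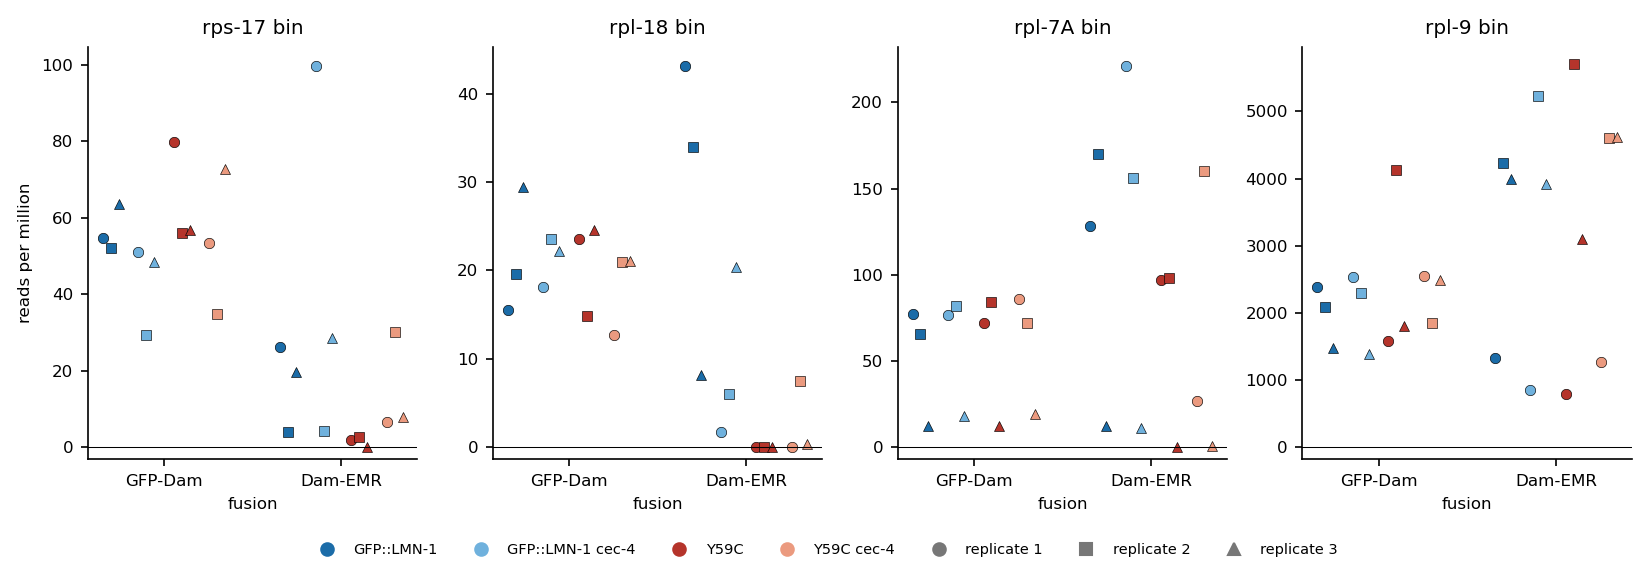
Level in CPM in the bins of rps-17, rpl-18, rpl-7A and rpl-9, in the 12 GFP-Dam and 12 Dam-EMR libraries, coloured by genotype and shaped by replicate round, each panel on its own linear axis. All Dam-EMR libraries of Y59C hold 0 reads in the rpl-18 bin, the round 3 libraries of the rpl-7A bin lie at 19.4 or lower in both fusions, and the round 1 Dam-EMR libraries of the rpl-9 bin lie below those of the other rounds.

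Within single genotypes, 1 ribosomal protein bin was called lower and none higher. In GFP::LMN-1, 0 of 75 were called by edgeR (background 0%), with 1 at an unadjusted p under 0.05 (1.33%, against 3.08% of all tested bins), and DESeq2 and limma called 0. The smallest p was that of rpl-26, whose product lies by the exit tunnel, at 1.6 on the log2 scale (SE 0.58, edgeR adjusted p = 1). In GFP::LMN-1 cec-4, 0 of 75 were called (background 0%), with 2 at an unadjusted p under 0.05 (2.67%, against 4.38%) and 0 by DESeq2 and limma, and rps-29 had the smallest p (−1.33, SE 0.64, edgeR adjusted p = 0.998). In Y59C cec-4, 0 of 75 were called (background 0%), with 5 at an unadjusted p under 0.05 (6.67%, against 10.3%) and 0 by DESeq2 and limma. There rpl-6 had the smallest p (−1.48, SE 0.52, edgeR adjusted p = 0.366). For the counts of 0 by DESeq2 and limma the share over all bins is not given. Those counts therefore say little about the ribosomal protein bins.

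In Y59C the bin of rpl-18 was called, 1 of 75 where 94 of 9737 tested bins (0.965%) were. At an unadjusted p under 0.05, 8 of the 75 passed (10.7%, against 19.9% of all tested bins). The 3 Dam-EMR libraries held 0 reads in the rpl-18 bin among 2839628, while the 3 GFP-Dam libraries held 590, and with 3 reads taken as the least the pooled group could show, the level was at least 21.0-fold lower. The Dam-EMR library of round 2 alone gave 2307059 of those reads, and without round 2 the bound was 4.24-fold. Amplified reads are not separate molecules here, so this floor covers counting error only. The edgeR adjusted p was 0.0498, close to the threshold, and 0.0629 with round as a block. Of 23 alternatives, 18 lost the call, and the adjusted p ran from 0.00752 to 0.447. It was lost with RLE size factors, library totals, limma and no filter, without both shallow pairs, without any whole round, and without any single pair except round 2 of GFP::LMN-1 cec-4, round 3 of Y59C and round 2 of Y59C cec-4. DESeq2, which called 8.86% of all bins in Y59C, called 5 of the 75 (6.67%), those of rpl-18, rps-17 (−4.19, SE 1.02, DESeq2 adjusted p = 0.00304), rpl-23A.2 (−3.36, SE 0.76, DESeq2 adjusted p = 0.00132), rpl-13A (−2.21, SE 0.66, DESeq2 adjusted p = 0.0187) and rps-6 (−1.81, SE 0.57, DESeq2 adjusted p = 0.0287), and limma called 0. The product of rps-6 is the S6 kinase substrate of the small subunit. Without round 3 of Y59C, where edgeR called 2.18% of all bins, it called rpl-18 and rpl-23A.2 (−4.0, SE 0.97, edgeR adjusted p = 0.0280). The median fitted ratio of the 75 bins in Y59C was −0.29, with rpl-18 fitted or at its bound, against −0.20 for all tested bins.

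The differences of emerin contact between genotypes were tested as changes of the ratio, to ask whether the Y59C lamin or cec-4 moved the ribosomal protein genes. The comparisons share genotypes, so their values are not independent of each other. Between Y59C and GFP::LMN-1, edgeR called 0 of 75 (background 0.0205%), with 8 (10.7%) at an unadjusted p under 0.05 against 10.8% of all tested bins. The smallest p was again that of the rpl-18 bin (edgeR adjusted p = 0.173), whose fitted value rests on the Y59C zeros. DESeq2, which called 1.16% of all bins, called 3 of the 75 (4%), those of rpl-18 (DESeq2 adjusted p = 0.0465), rpl-23A.2 (−3.86, SE 0.96, DESeq2 adjusted p = 0.0139) and rps-6 (−2.82, SE 0.77, DESeq2 adjusted p = 0.0319), and limma called 0. Without both shallow pairs edgeR called 0.582% of all bins and 1 of the 75, that of rpl-23A.2 (−4.39, SE 1.01, edgeR adjusted p = 0.0499).

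No ribosomal protein bin was called between cec-4 mutant and intact genotypes with either lamin by edgeR. Between GFP::LMN-1 cec-4 and GFP::LMN-1, 0 of 75 were called by edgeR (background 0%), 0 at an unadjusted p under 0.05 against 2.53% of all tested bins, and 0 by DESeq2 and limma. The smallest p was that of rps-27 (−1.42, SE 0.88, edgeR adjusted p = 1). Between Y59C cec-4 and Y59C, 0 of 75 were called (background 0%), with 9 (12%) at an unadjusted p under 0.05 against 13.6% of all tested bins, 1 by DESeq2 (3.32% of all bins) and 0 by limma. The smallest edgeR p was that of rpl-22, a large-subunit gene, with 1.95 (SE 0.62, edgeR adjusted p = 0.154). The bin DESeq2 called was that of rpl-34 (DESeq2 adjusted p = 0.0261), whose Dam-EMR libraries held 173, 18 and 0 reads in Y59C and 0, 0 and 14 in Y59C cec-4.

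The genotype with both changes was also set against GFP::LMN-1. Between Y59C cec-4 and GFP::LMN-1, edgeR called 0 of 75 (background 0%), with 2 at an unadjusted p under 0.05 (2.67%, against 4.58% of all tested bins), and limma called 0. DESeq2, which called 0.217% of all bins, called 1 of the 75, that of rpl-26 (−3.19, SE 0.81, DESeq2 adjusted p = 0.0381), which also had the smallest edgeR p (−3.09, SE 0.85, edgeR adjusted p = 0.750). Its Dam-EMR levels were 162, 256 and 122.8 CPM in GFP::LMN-1 and 39.8, 5.94 and 17.5 in Y59C cec-4, without overlap.

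In the authors' deposited table of log2 ratios, with 1 value per genotype and bin, the median ribosomal protein bin lay 0.06 above the median bin in GFP::LMN-1. In the authors' deposited table it lay at −0.24 relative to that bin in GFP::LMN-1 cec-4, −0.68 in Y59C and −0.37 in Y59C cec-4. The ribosomal protein bins above the median bin in the authors' deposited table numbered 41, 22, 12 and 19 of 75 in the same order. A log2 of the mean of 3 ratios recomputed from the counts differed from the authors' deposited table by at most 0.334 in any of the 75 bins, in Y59C, and by at most 0.0169 in the other genotypes. That measure is unlike the centred log2 ratios averaged over pairs above, and it comes without a spread between rounds. Its values are therefore not comparable with those.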

How the data were processed

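DamID reads of 24 libraries were used as deposited. Per the labels, the authors mapped them to ce11, and the deposited counts are mapped reads per 10 kb bin with no scaling. The authors also deposited log2 ratios of Dam-EMR over GFP-Dam, 1 value per genotype and bin. Neither the aligner nor any read filter is named in the sources used here. Genes were placed by RefSeq coordinates of the same assembly. Tables of 100 kb bins were not used.

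Levels (CPM) are reads per 1000000 reads outside the rDNA and mitochondrial bins. Log2 levels and ratios add 1 read to each bin, and ratios are centred on the median nuclear bin of each pair. Counts were tested with edgeR 4.0.16 (quasi-likelihood, TMM, filterByExpr, 1 mean per group, 11 comparisons) in R 4.3.3, with Benjamini-Hochberg adjustment over all 9737 bins and a threshold of 0.05. For edgeR, SE is the absolute log2 value divided by the square root of the test's F statistic, whereas DESeq2 reports its own SE. The fit was tested on simulated data. Alternatives were DESeq2 1.42.0, limma 3.58.1 on pair ratios (for GFP-Dam alone, on log2 levels), RLE size factors, library totals, no filter, round as a block, and leaving out libraries. Where a count of 0 by DESeq2 or limma comes without its share over all bins, it says little about the ribosomal protein bins. Leaving out the rDNA and mitochondrial bins, both shallow pairs, the bins of rpl-9 and rpl-17, or 1 round from the floor of rpl-18 was chosen after seeing the data.

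By the design text each replica was a round in which every strain was raised side by side, so replicate numbers pair libraries. Deviations from group means of libraries of the same round had a median correlation of 0.516 (0.278 to 0.719) in GFP-Dam and 0.0931 (−0.183 to 0.340) in Dam-EMR, over 9734 bins.

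The genes, gene lists and tests were chosen with earlier results of these data known. Genes are named if their bin was called, had 1 of the 6 highest or lowest averaged ratios, the smallest p of a comparison without calls, or 1 of the 5 highest or lowest GFP-Dam levels, or if 2 share a bin. Other genes named were chosen after their values were seen. The direction in which a gene is read was not used.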

Additional observations from a re-analysis of the deposited data

How the results depend on the processing

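For single bins, 406 of 446 alternative values kept direction and side of the threshold, 34 were no longer past it, 5 were newly past it and 1 changed sign. That was rps-19, from −0.035 without round 2 of Y59C to 0.70 without round 1. Of 271 counts and medians, 240 stayed within their limits. Bins lower in the averaged association numbered 0 with limma and 0 without both shallow pairs, and 0 to 3 with libraries left out, while those higher numbered 0 to 2. Of all bins, limma called 1 lower and 3 higher, and with libraries left out edgeR called 0 to 294 lower and 0 to 104 higher. In Y59C the count was 5 with DESeq2, 3 without the rDNA and mitochondrial bins, 0 with RLE size factors, library totals, limma or no filter, and 0 to 2 with libraries left out. DESeq2 called 8.86% of all bins in Y59C, and edgeR 2.18% without round 3 of Y59C. For the other settings in Y59C the share over all bins is not given. With the replicate block it was 0, and the block kept both averaged lower calls (2). DESeq2 called 3 bins between Y59C and GFP::LMN-1, 1 between Y59C cec-4 and Y59C and 1 between Y59C cec-4 and GFP::LMN-1. Of all bins it called 1.16%, 3.32% and 0.217% in that order. Without both shallow pairs edgeR called 1 between Y59C and GFP::LMN-1 (0.582% of all bins). The GFP-Dam level above autosome centre bins was 1.79. Over 23 alternatives the averaged median ran from −0.33 to 0.08 for all bins, and that of the ribosomal protein bins differed from it by −0.08 to 0.23. The pair-ratio median was −0.04 with 0.5 reads added and −0.40 with 5. The cause was not tested. In the shallowest Dam-EMR library the median ribosomal protein bin held 4 reads, which bounds the precision of single-bin ratios there. With 1 read added, the bins of rpl-7A (0.48), rpl-28 (0.92) and rpl-34 (0.20) had ratios above 0 in that pair with 0 Dam-EMR reads. Counts of pairs above 0 include such values.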

Other observations

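The GFP-Dam level of a few ribosomal protein bins differed between rounds in all genotypes alike. In the rpl-7A bin it was 76.8 ± 6.96 CPM in the 8 libraries of rounds 1 and 2 (65.6 to 86.1) and 15.3 ± 3.81 in the 4 of round 3 (12 to 19.4), 5.00-fold lower and without overlap. Dam-EMR in the same bin was 132 ± 58.9 in rounds 1 and 2 and 6.11 ± 6.63 in round 3. The bin also holds tald-1. Of nuclear bins, 1.41% had as large a range of the 3 round means. The rpl-28 bin had 8.55 ± 1.26, 36.3 ± 10.5 and 11.3 ± 3.68 CPM of GFP-Dam in rounds 1, 2 and 3. Ranges over 1 log2 unit were found in 9 of the 75 bins (12%), against 26.6% of nuclear bins. What differed between rounds was not tested.

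In the rpl-34 bin the Dam-EMR level stood out in 2 libraries, with 342 CPM in round 1 of Y59C and 108 in round 1 of GFP::LMN-1 cec-4. The other 10 Dam-EMR libraries had 0 to 37.0. Among ribosome biogenesis genes, whose products build the ribosome, 16 bins outside the 75 were tested. In the averaged association edgeR called 3 of them (18.8%), against 3.09% of all nuclear bins. They went in opposite directions. The bin of pro-1 was higher (1.92, SE 0.36, edgeR adjusted p = 0.00691, above 0 in 10 of 12 pairs). Those of nol-6 (−3.29, SE 0.92, edgeR adjusted p = 0.0494) and nol-9 (−3.76, SE 0.86, edgeR adjusted p = 0.0245) were lower, above 0 in 2 and 3 of 12 pairs. Without round 3 no bin of the genome was called, so these calls were lost too. Bins of mitochondrial ribosomal proteins (67 tested), translation factors (39) and tRNA synthetases (19) had 0 called by edgeR.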
